A study of Mus musculus with 8 samples.

Results

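The genes of the enteroendocrine hormones and granins were followed through single-cell RNA sequencing of mouse colon: Chga, Chgb, Gcg, Pyy, Insl5, Sst, Tph1, Cck, Nts and Tac1. They were taken by gene symbol and make up 10 of the 32285 genes in each count table, and all 10 were found. The 8 libraries came from male C57BL/6 mice aged 6 to 12 weeks and were made with the Single Cell 3′ v3 kit. Tissue epithelium (2 libraries) was isolated colonic crypts. Organoid epithelium (2 libraries) was grown from crypts in full medium with surrogate Wnt, CHIR-99021, R-spondin 1 and noggin. Assembloid epithelium (2 libraries) came from organoids combined with cultured primary colon stromal cells and kept in medium without those 4 factors. Assembloid stroma (2 libraries) was the EpCAM-negative fraction of the same kind of culture. All groups are wild type; the cultures were sorted by flow cytometry, and the stromal cells had been expanded in culture before they were combined, so the stroma holds cells that had been through that culture.

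Enteroendocrine cells are rare secretory cells of the gut epithelium that keep peptides or serotonin in dense-core granules and release them toward the blood and nerves. The granins chromogranin A (Chga) and chromogranin B (Chgb) are packed into these granules. In the colon the main kinds are L cells, which make proglucagon (Gcg, the source of GLP-1), peptide YY (Pyy) and insulin-like peptide 5 (Insl5), enterochromaffin cells, which make serotonin through tryptophan hydroxylase (Tph1) and often substance P from Tac1, and D cells, which make somatostatin (Sst). Cholecystokinin (Cck) and neurotensin (Nts) are better known from the small intestine.

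Promoter sequence is shown for both granins and for 2 hormones as examples, each around a match to a searched motif. The sequences are from RefSeq, build GRCm38.p6, in which all 10 members were found with 13 promoter entries, and each line runs 5′ to 3′ on the gene's own strand with the motif in capitals. The lines cover chr12:102554885-102554914 (+ strand), chr2:132781559-132781588 (+ strand), chr16:23890874-23890903 (− strand) and chr2:62483660-62483689 (− strand).
Chga: ggggcggtcctaTGACGTaatttcctgggt
Chgb: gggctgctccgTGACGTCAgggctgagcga
Sst: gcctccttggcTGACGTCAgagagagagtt
Gcg: gcctggagagcaTATAAAagcacagcaccc
TGACGTCA is the full cyclic AMP response element, TGACGT its shorter form, which lies within it, and TATAAA the core of the box at which transcription machinery assembles, each searched on both strands of the 250 bases before the start. The capitals begin 44 bases before the RefSeq start in Chga, 72 in Chgb, 48 in Sst and 24 in Gcg. The Chgb and Sst stretches lie within the GENCODE spans of those genes given below, which start further upstream than RefSeq. Of 32851 RefSeq promoters, 1.55% hold TGACGTCA, 6.47% hold TGACGT and 12.4% hold TATAAA. Insl5, not shown, also holds TATAAA (49 bases before 1 of its 2 RefSeq starts on its own strand, and 88 before the other on the opposite strand), and the other 5 members hold none of these letters in that window. These are matches of letters and were not tested as sites.

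The 10 genes lie apart in the genome (GENCODE M21 on GRCm38), with 2 of them on chromosome 2. The granin genes are Chga at chr12:102554969-102565028 (+ strand) and Chgb at chr2:132781278-132795079 (+). The L-cell hormone genes are Gcg at chr2:62474530-62483650 (− strand), Pyy at chr11:102106676-102107832 (−) and Insl5 at chr4:103017872-103026842 (−). Sst is at chr16:23889573-23890958 (−), Tph1 at chr7:46644641-46672537 (−), Tac1 at chr6:7554879-7565834 (+), Cck at chr9:121489824-121495694 (−) and Nts at chr10:102481756-102490486 (−). Counts were deposited per gene, so exons and transcripts of a gene are not separated.

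A cell was used if it had at least 500 genes and at most 10% mitochondrial UMIs (a UMI marks 1 captured RNA molecule whatever its length, so levels of different genes can be compared within a library). This kept 74749 of 115502 barcodes, between 25.4% (tissue 2) and 96.1% (stroma 2) of a library, after 2359 cells with more non-epithelial than epithelial marker UMIs were left out of the epithelial libraries (2348 of them from assembloids). The libraries held 36944213 (tissue 2) to 187583982 (organoid 1) UMIs. Median depth per cell ran from 3350.5 UMIs in tissue 1 to 35219 in organoid 1, and assembloid 1 (27975 cells, median 3401) was much shallower per cell than assembloid 2 (6809 cells, median 14059). Any pair of libraries shared 13 to 141 cell barcodes, and no doublet caller was run. Levels of marker lists per 10,000 UMIs, here and below, are means over cells of each cell's share, unless a median is named. Epithelial markers, 12 genes, stood at 74.9 to 169 in the epithelial libraries and 0.796 to 3.798 in the stroma. Fibroblast markers, also 12 genes, stood at 6.44 and 1.32 per 10,000 in assembloid epithelium, at 0.0701 and 0.0788 in tissue and at 0.296 and 0.414 in organoids. Of those 12, 11 were above tissue in assembloid epithelium by the test described next, as were 9 of the 10 immune markers tested.

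Levels are given on the counts-per-million scale (CPM), as the UMIs of a gene over all UMIs of the cells used in a library. The groups were compared with edgeR's quasi-likelihood test on summed UMIs, with Benjamini-Hochberg adjustment over all 19238 genes tested, and a gene was called at an adjusted p under 0.05. An exact permutation test of 2 against 2 libraries cannot go below p = 0.333. Library sums cannot tell fewer hormone cells from less RNA per cell.

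Against tissue, assembloid epithelium had lower sums of 5 of the 10 genes (Chga, Gcg, Pyy, Insl5 and Tph1) and higher sums of 3 (Cck, Nts and Tac1), while Chgb and Sst did not pass the test. The background was 49.8% of all tested genes called in either direction, 26.7% higher and 23.1% lower. The median log2 fold change was -1.29 over the 10 genes and 0.03 over all genes. The median over the 10 was -0.50 without assembloid 1, -2.98 without assembloid 2. At a limit of 5% mitochondrial UMIs, where Nts was not tested, the median over the other 9 was -4.42. Against tissue, organoid epithelium had lower sums of 9 of the 10, all but Nts, where 47.2% of all genes were called, 24.3% higher and 22.9% lower. The median over the 10 was -6.28 against 0.06 over all genes. Organoids were also below assembloids in 9 of the 10, all but Insl5, where 53% of all genes were called, 24.3% higher and 28.6% lower, with medians of -3.63 and -0.01 (-2.55 over the 10 without assembloid 2 and -4.88 without organoid 2). With a limit of 5% mitochondrial UMIs in place of 10%, the rises of Cck and Tac1 in assembloids were not called (log2 0.09 and 0.31), and with 20% the falls of Pyy and Tph1 were not (adjusted p = 0.0507 and 0.204). The 3 comparisons share libraries, so they are not independent of each other.

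**Figure D1:**
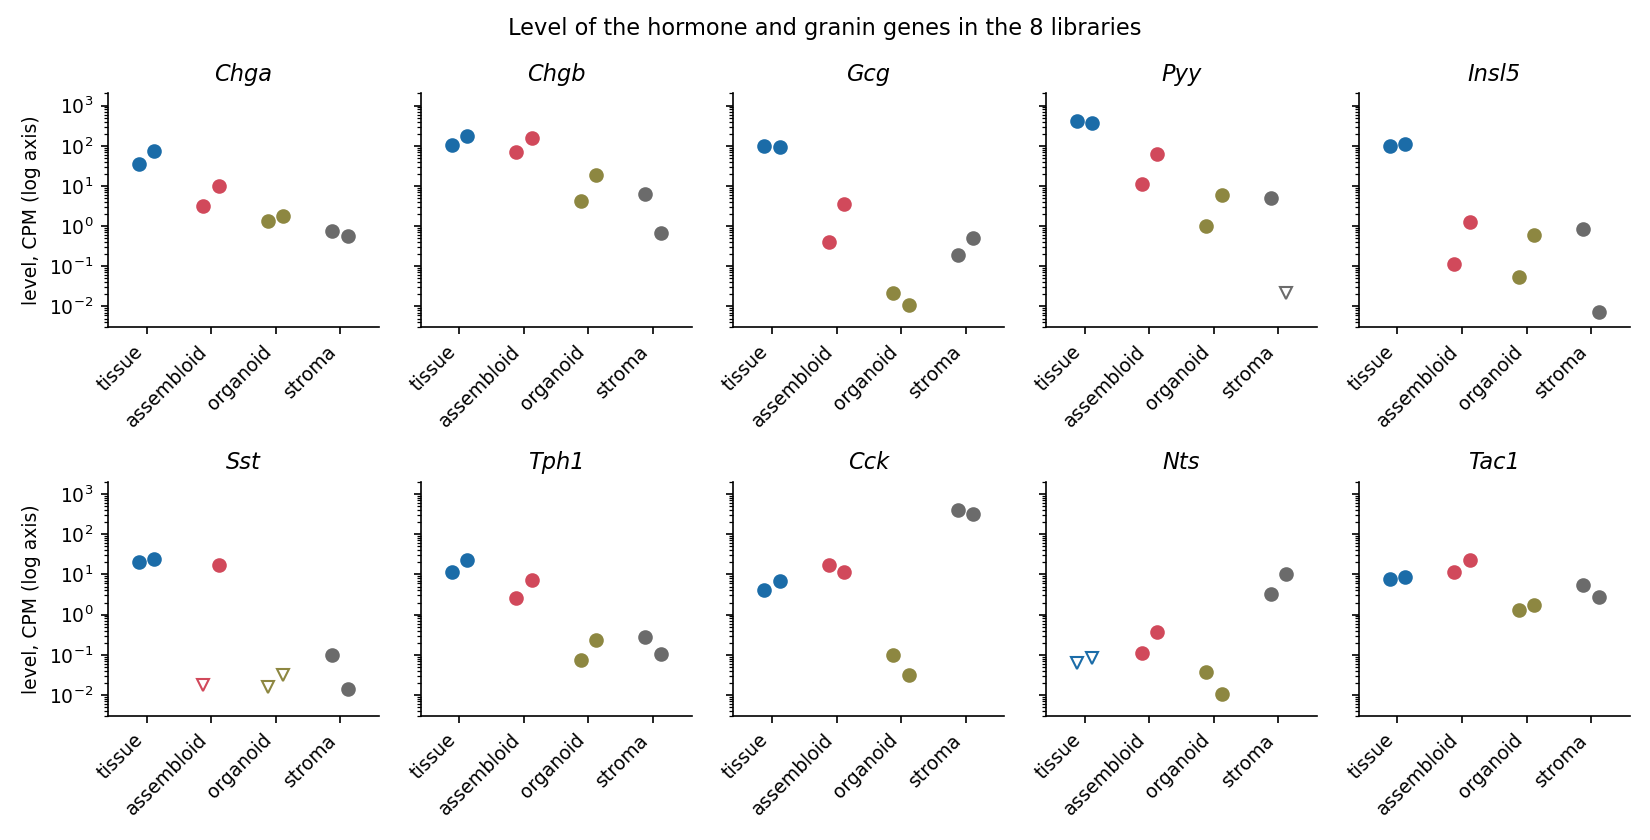
Level of each of the 10 genes in the 8 libraries, in CPM on a log axis; each point is 1 library, and an open triangle is a library with 0 UMIs drawn at its limit of 3 UMIs. Pyy stood at 425 and 376 in tissue, 11.03 and 64.2 in assembloids and 1.02 and 6.09 in organoids, while Cck and Nts were highest in the stroma.

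The 2 granins differed from each other. Chga, whose protein helps granules form, had 35.7 and 72.2 CPM in tissue, 3.08 and 10.2 in assembloids, 1.33 and 1.78 in organoids, and in stroma 0.748 and 0.565. The 3 epithelial groups did not overlap, with tissue highest and organoids lowest. Chga fell by 2.68 ± 0.50 (SE) on the log2 scale from tissue to assembloid (adjusted p = 0.00291) and changed by -4.90 from tissue to organoid (adjusted p = 0.000239). Chgb had 102 and 177 CPM in tissue, 69.5 and 158 in assembloids, 4.23 and 18.9 in organoids, with 6.37 and 0.658 in stroma. Tissue and assembloid overlapped in Chgb, with a log2 difference of 0.06 ± 0.56 (SE, adjusted p = 0.93), a value whose sign turned when assembloid 2 was left out (-0.53) or tissue 1 was left out (-0.31). Organoids were below both in Chgb, by 3.46 against tissue (adjusted p = 0.00219) and by 3.53 against assembloids (adjusted p = 0.00195). Per library, Chgb UMIs outnumbered Chga UMIs by 11652 to 516 in assembloid 1 and by 4786 to 1680 in tissue 1.

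The 3 L-cell hormones were all lower in assembloids than in tissue. Pyy, a brake on gut motility and appetite, had 425 and 376 CPM in tissue, 11.03 and 64.2 in assembloids and 1.02 and 6.09 in organoids. It was the highest of the 10 genes in both tissue libraries. Pyy fell by 3.09 ± 0.83 (SE) in assembloids (adjusted p = 0.0147) and by 6.71 in organoids (adjusted p = 0.000827). Gcg had 100.5 and 92.8 CPM in tissue, 0.394 and 3.56 in assembloids and 0.0213 and 0.0108 in organoids, where 4 and 1 UMIs were counted. The Gcg groups did not overlap, and the log2 change was -5.31 ± 0.79 (SE) in assembloids (adjusted p = 0.00096) and -12.04 in organoids (adjusted p = 0.000112). Insl5, a peptide largely restricted to the distal colon, had 97.7 and 109 CPM in tissue, 0.113 and 1.29 in assembloids and 0.0533 and 0.602 in organoids. Insl5 fell by 6.94 ± 1.05 (SE) in assembloids (adjusted p = 0.00105) and by 8.33 in organoids (adjusted p = 0.00057). The 2 cultures overlapped in Insl5 and did not differ by the test (log2 -1.39, adjusted p = 0.28). Leaving out assembloid 1 gave -2.34 and leaving out assembloid 2 gave 1.03, each with 1 assembloid library left. Pyy and Chga were called lower in organoids than in assembloids (-3.62 with adjusted p = 0.0077, and -2.21 with adjusted p = 0.00656), calls lost without organoid 1 for both genes (adjusted p = 0.0591 and 0.0709) and without organoid 2 for Chga (0.061).

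Sst, which restrains the release of other hormones, rested mostly on 1 cell in assembloid 2 and on more cells in tissue, where 8 cells of each library were Sst-rich (at least 5 UMIs and 10 per 10,000) and the richest held 48.1% and 37.4% of the UMIs. It had 20.5 and 23.8 CPM in tissue, 0 and 17.4 in assembloids, and no UMI in either organoid library. Of the 1876 Sst UMIs of assembloid 2, 1677 (89.4%) came from 1 cell. The log2 difference between assembloid and tissue was -1.06 ± 1.59 (SE, adjusted p = 0.61), and it was -3.52 without the richest cell of each hormone. At a limit of 5% mitochondrial UMIs Sst was called lower (-4.67, adjusted p = 0.0213). Without assembloid 2 Sst was called lower, with 0 UMIs in the remaining assembloid library. Sst was called lower in organoids than in tissue and than in assembloids. Pooled over the group, a limit of 3 UMIs for organoids lies 2052-fold below the tissue level and 637-fold below the assembloid level. That limit treats UMIs as independent, while Sst UMIs lay mostly in few cells. These folds are therefore not lower bounds on the difference. Both calls (adjusted p = 0.0163 and 0.021) were lost when either organoid library was left out. The difference from assembloids rested on assembloid 2 and mostly on its 1 rich cell, since without that library there were 0 Sst UMIs on either side.

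The library sums of Tph1 and Tac1, which enterochromaffin cells can share, moved in opposite directions in assembloids. Much of the Tac1 sum lay outside cells that passed the marker gate explained with the gated values. Such cells held 34.1% and 44.5% of the Tac1 UMIs in tissue, 16.1% and 62.9% in assembloids and 0% and 44.0% in organoids. Within gated cells Tph1 did not pass the test (-0.23). The sums are thus not read as changes of enterochromaffin cells. Tph1 had 11.8 and 23.03 CPM in tissue, 2.54 and 7.06 in assembloids and 0.0746 and 0.237 in organoids. The 3 groups did not overlap, with log2 changes from tissue of -1.51 ± 0.50 (SE, adjusted p = 0.0345) in assembloids and -6.72 in organoids (adjusted p = 0.000116). The Tph1 call in assembloids was lost without assembloid 1 (-0.98, adjusted p = 0.12), without tissue 2 (-0.96, adjusted p = 0.239), and without organoid 1 or 2 (adjusted p = 0.0501 and 0.0521). Tac1 had 7.74 and 8.88 CPM in tissue, 11.2 and 22.9 in assembloids, 1.31 and 1.71 in organoids, and in stroma 5.44 and 2.72. Assembloids were above both tissue libraries, by 1.40 ± 0.29 (SE) on the log2 scale (adjusted p = 0.0047, and 0.0519 without tissue 1), and organoids were below both, by 2.24 (adjusted p = 0.000553). Against assembloids, organoids were lower in Tac1 (-3.63, adjusted p = 0.000105), Tph1 (-5.20, adjusted p = 0.000402), Cck (-7.68, adjusted p = 5.61e-05) and Gcg (-6.72, adjusted p = 0.00187).

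Cck and Nts were the members that the stroma held most of. The stromal tables were made with another version of the counting software than the epithelial ones, which could change values set side by side between them, and no test was run between them. Cck, which drives gallbladder contraction and satiety, had 4.15 and 6.69 CPM in tissue, 16.9 and 11.7 in assembloids, 0.101 and 0.0323 in organoids, and in stroma 412 and 322. Cck rose by 1.81 ± 0.41 (SE) on the log2 scale in assembloid against tissue epithelium (adjusted p = 0.00708), a call lost without tissue 1 (1.48, adjusted p = 0.0703), and fell by 5.86 in organoids (adjusted p = 8.68e-05). Nts had no UMI in either tissue library, 19 and 39 UMIs in the assembloid libraries (0.113 and 0.362 CPM), 7 and 1 in organoids, and 523 and 1404 in stroma (3.23 and 10.0 CPM). Nts was called higher in assembloid than in tissue epithelium (adjusted p = 0.0096), a call lost without tissue 1. Pooled over the group, the Nts level of assembloids lies 5.90-fold above a limit of 3 UMIs for tissue. That limit treats UMIs as independent, while 16 of the 39 Nts UMIs of assembloid 2 lay in 1 cell. The fold is therefore not a lower bound. The difference between organoid and tissue was not called (adjusted p = 0.16), but it was at a limit of 20% mitochondrial UMIs (adjusted p = 0.0205) and over every barcode (0.00881). Organoids were below assembloids in Nts (-3.12, adjusted p = 0.0164), a call lost without assembloid 2, organoid 1 or organoid 2 (adjusted p = 0.0737, 0.0654 and 0.133), with DESeq2 (0.0779) and at 20% mitochondrial UMIs (0.0521). Beside these rises stand the fibroblast markers of assembloid epithelium given above, 6.44 and 1.32 per 10,000 against at most 0.0788 in tissue. Of 9 neuron and 9 endothelial markers tested, 6 of each list were called higher and 2 lower (26.7% and 23.1% of all genes). Of 5 glia markers tested, 1 was higher and 1 lower. Neuron markers stood at 0.361 and 0.428 per 10,000 in assembloids and at 0.0583 and 0.0893 in tissue. Endothelial markers, a list that shares Prox1 with the enteroendocrine transcription factors, stood at 0.320 and 0.213 against 0.0929 and 0.108. Glia markers stood at 7.67 and 6.22 against 0.888 and 0.733. The part of cells with any of these markers in the sums of Cck, Nts and Tac1 was not tested. In assembloid 1, 6.45% of the Cck UMIs lay in cells that passed a gate on enteroendocrine markers and depth, explained with the gated values, against 76.9% in assembloid 2 and 87.7% and 93.5% in tissue.

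**Figure D2:**
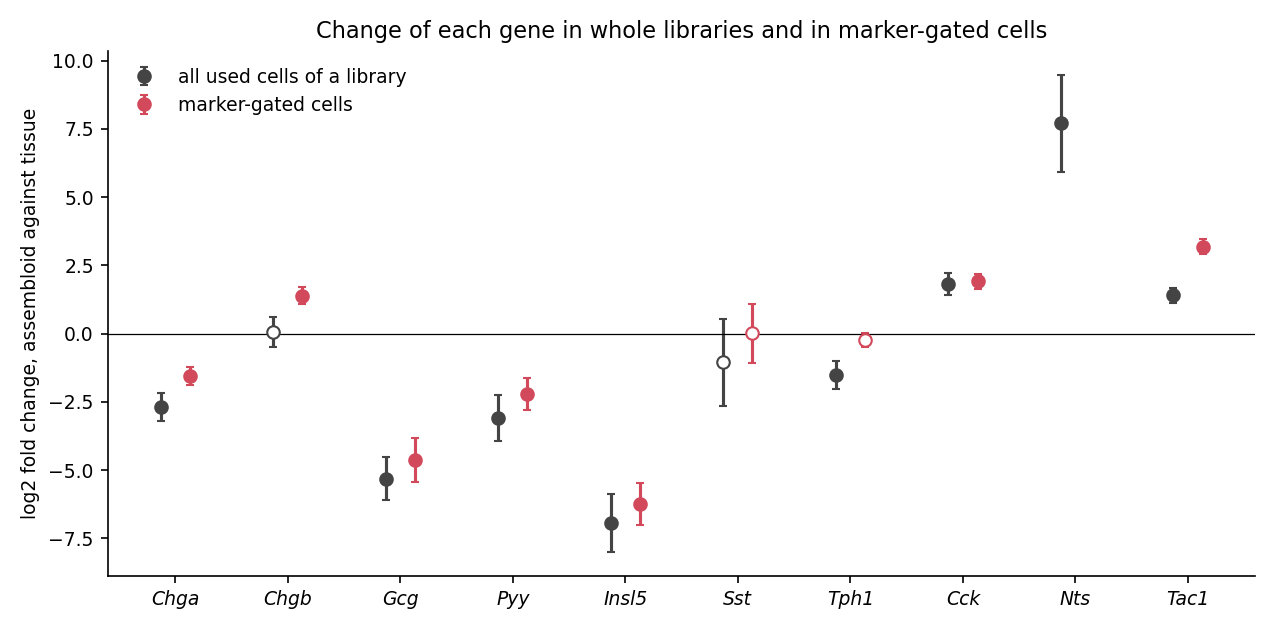
Log2 fold change of each gene with bars of ± 1 SE, for the library sums of all cells used and for cells that pass the marker gate; open circles did not pass an adjusted p of 0.05, and Nts has no gated value. From tissue to assembloid Chgb moved from 0.06 in the sums to 1.38 in the gated cells, while Gcg, Pyy and Insl5 were lower in both.

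To set the number of enteroendocrine-like cells apart from the level over such cells, cells were gated on 25 enteroendocrine markers. These include the transcription factors Neurod1, Insm1 and Rfx6 and the granule proteins Cpe, Scg2 and Pcsk1, and none of the 10 genes. Each cell with at least 2000 UMIs was thinned to that number, and a cell with at least 3 of the 25 markers was called enteroendocrine-like. Shallower cells could not enter the gate: 2249 of 4686 cells in tissue 1, 1538 of 4305 in tissue 2, 6884 of 27975 in assembloid 1, 781 of 6809 in assembloid 2, 110 of 4872 in organoid 1 and 3419 of 8034 in organoid 2. Gated shares and sums describe the deeper cells alone. The gate is a range and not a cell type, and its limit was chosen after the data were seen. Tissue held 57 such cells of 2437 (2.34%, exact 95% interval 1.78 to 3.02) and 105 of 2767 (3.79%, 3.11 to 4.58). Assembloids held 34 of 21091 (0.161%, 0.112 to 0.225) and 59 of 6028 (0.979%, 0.746 to 1.26), and organoids 12 of 4762 (0.252%, 0.13 to 0.44) and 19 of 4615 (0.412%, 0.248 to 0.642). Tissue was above every culture library, and the 2 cultures overlapped; the intervals cover counting error only. At a gate of 2 markers the cultures did not overlap, with 0.65% and 1.23% in assembloids and 0.399% and 0.585% in organoids. At a limit of 20% mitochondrial UMIs tissue stood at 1.12% and 1.58%, above assembloids at 0.16% and 0.877% and organoids at 0.274% and 0.354%. Without thinning and with the shallower cells included, tissue stood at 2.09% and 3.25%, assembloids at 0.558% and 1.97%, and organoids at 1.68% and 0.573%. The gate was sharp in tissue, where 9 and 24 cells carried 2 markers and 56 and 98 carried 4 or more, and it was not in assembloid 1, where 103 cells carried 2, 16 carried 3 and 18 carried more.

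The gated cells of the epithelial libraries carried 22 to 25 of the 25 markers in at least 5% of cells. Those of the stroma carried 18 and 13. The gate selects on these markers, so the counts describe the cells and do not test what they are. In organoid 1, with 12 gated cells, 1 cell is 8.33%. Markers of other cells were also present. The median over gated cells was 0.533 and 0 per 10,000 for fibroblast markers in assembloids and 0 in tissue, and at most 2.65 for neuron markers in any epithelial library. For glia markers it was 3.32 and 1.15 in assembloids and 0 in tissue. For endothelial markers it was 0 and 0.569 in assembloids, 2.54 and 1.44 in tissue, and 1.70 and 1.74 in organoids, which were grown without stroma. The endothelial list holds Prox1, which is also on the list of enteroendocrine transcription factors used below. Its level in gated cells is therefore not read as RNA of endothelial cells. Goblet cell markers had a median of 38.0 and 13.7 per 10,000 in the gated cells of assembloids, 28.7 and 40.0 in tissue, and 52.3 and 4.93 in organoids. As means over gated cells, goblet markers were above the mean of all cells in assembloid 1 (72.1 against 23.96). They were also above it in both organoid libraries (57.0 against 5.03, and 20.9 against 7.03), and below it in assembloid 2 and in tissue. The stroma had 57 and 64 cells past the gate, but those carried neuron markers at a median of 34.6 and 92.7 per 10,000 and are not called enteroendocrine-like here.

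Gated assembloid cells held more of the Chgb, Cck and Tac1 RNA and less of the Chga, Gcg, Pyy and Insl5 RNA than gated tissue cells, as CPM over the UMIs of such cells. The gate pools the kinds of enteroendocrine cell. These sums therefore cannot tell fewer or more cells of 1 kind from a changed level in each such cell. Of 9 members tested in these sums, 3 were called higher and 4 lower, and Sst and Tph1 did not pass. The background was 23.6% of 8687 genes called, 11.5% higher and 12.1% lower, with a median log2 change of -0.23 over the 9 and -0.01 over all. Without assembloid 1 the median over the 9 was -0.04, and without assembloid 2 it was -1.999. At a gate of 2 markers 4 members were called, with Chga, Chgb and Pyy lost (adjusted p = 0.0525, 0.237 and 0.122). The organoid libraries had too few gated cells for this test, with 12 and 19 against a limit of 50. Assembloid 1, with 34, was also under that limit and was kept. No gated cell of any epithelial library had an Nts UMI.

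Among the members that were higher, Chgb had 7258 and 7928 CPM in gated tissue cells and 15827 and 17099 in gated assembloid cells. The groups did not overlap, and the log2 difference was 1.38 ± 0.31 (SE, adjusted p = 0.00799). That call was lost without either tissue library (adjusted p = 0.0864 and 0.0879, at 1.34 and 1.45). Tac1, with 195 and 190 CPM in tissue and 1158 and 1777 in assembloids, rose by 3.18 ± 0.29 (SE) on the log2 scale (adjusted p = 4.68e-05). Cck, with 269 and 301 CPM in tissue and 699 and 1107 in assembloids, rose by 1.92 ± 0.27 (SE, adjusted p = 0.000675). As means over the same gated cells, fibroblast markers stood at 8.47 and 0.63 per 10,000 in assembloids and at 0 and 0.0736 in tissue. The 8.47 of assembloid 1 was above the 6.44 over all cells of that library. Glia markers stood at 4.84 and 5.81 in gated assembloid cells and at 0.747 and 0.771 in gated tissue cells. Only 1 of the 8 glia genes and 1 of the 12 fibroblast genes passed the filter on low counts in the gated sums. Each was called higher, so neither list was seen to move as a whole. The part of either list of markers in the Cck and Tac1 sums was not tested.

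Among the members that were lower, Insl5 had 6138 and 4621 CPM in gated tissue cells and 0 and 102 in gated assembloid cells, a log2 change of -6.23 ± 0.77 (SE, adjusted p = 0.00029). Gcg had 6889 and 4094 CPM in tissue and 15.3 and 341 in assembloids (-4.62 ± 0.79 SE, adjusted p = 0.00198), where 1 cell held 217 of the 298 UMIs of assembloid 2 and assembloid 1 had 4 UMIs. Pyy had 27245 and 15727 CPM in tissue and 1295 and 6802 in assembloids (-2.20 ± 0.59 SE, adjusted p = 0.0197). DESeq2 did not call Pyy or Insl5 in these cells (adjusted p = 0.156 and 0.0569). Chga had 2486 and 3238 CPM in tissue and 558 and 1081 in assembloids (-1.55 ± 0.32 SE, adjusted p = 0.00551). Tph1, at 848 and 1028 CPM in tissue against 539 and 791 in assembloids, did not pass (-0.23 ± 0.26 SE, adjusted p = 0.57), although the groups did not overlap. Sst, at 1280 and 930 CPM in tissue against 0 and 1921, did not pass either (adjusted p = 0.996). It turned on 1 cell, which held 1677 of the 1678 Sst UMIs of the gated cells of assembloid 2. Sst was called higher without assembloid 1 (1.00, adjusted p = 0.0142) and lower without assembloid 2 (adjusted p = 3.38e-09), fits in which the lone assembloid library is assumed to vary as the 2 tissue libraries do.

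The same cells can be described by the mix of their hormone RNA. In gated tissue cells Pyy made up 51.8% and 41.3% of the UMIs of the 10 genes, Chgb 13.8% and 20.8%, Gcg 13.1% and 10.8%, and Insl5 11.7% and 12.1%. In gated assembloid cells Chgb made up 78.8% and 55.1%, Pyy 6.45% and 21.9%, Tac1 5.76% and 5.73%, and Cck 3.48% and 3.57%. In the 12 and 19 gated organoid cells Chgb made up 65.5% and 73.0% and Pyy 15.5% and 15.7%. Single cells weighed on these shares: 1 organoid 1 cell held 922 of the 1158 UMIs and all 179 Pyy UMIs, and 1 assembloid 2 cell held 2999 of the 5942 Pyy UMIs. Without the cell of each library with the most UMIs of the 10 genes, Pyy made up 49.9% and 34.7% in tissue, 8.93% and 12.9% in assembloids and 0% and 20.8% in organoids, and Chgb 17.2% and 25.5%, 77.7% and 60.6%, and 63.6% and 67.8%. With and without those cells Chgb led in the 4 culture libraries, and Pyy in both tissue libraries.

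**Figure D3:**
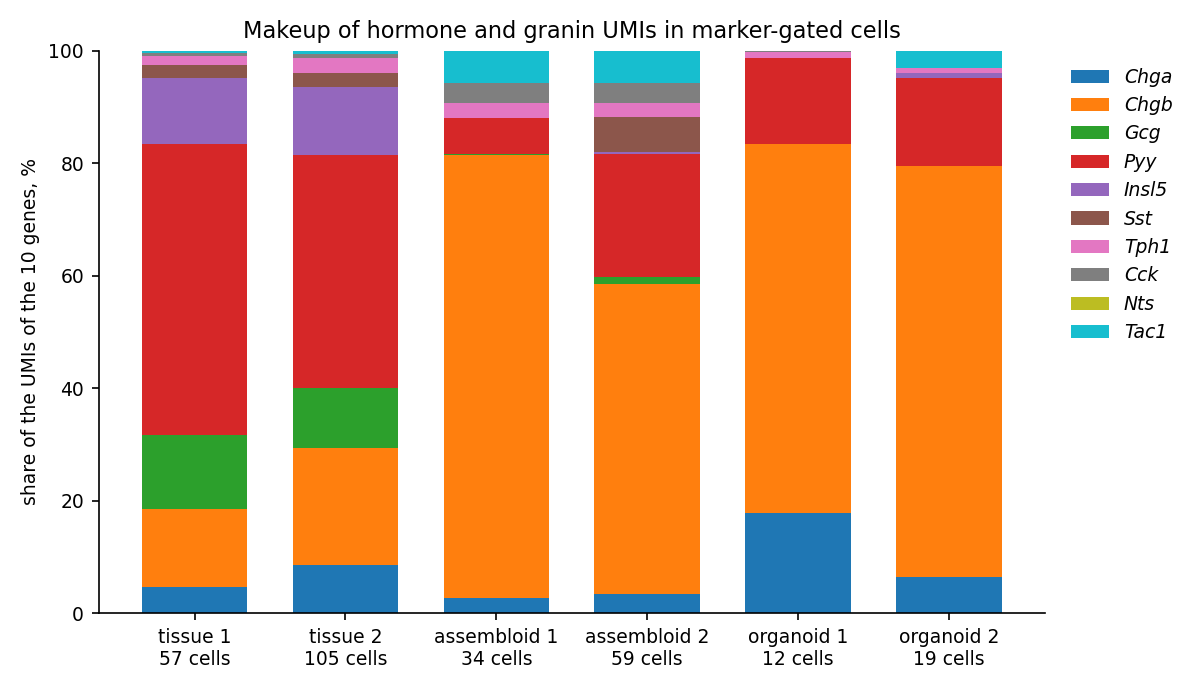
Share of the UMIs of the 10 genes that each gene took in marker-gated cells, by library, with the number of gated cells under each bar. Pyy took 51.8% and 41.3% in tissue, and Chgb took between 55.1% and 78.8% in the 4 culture libraries.

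Cell by cell, each gated cell was given the non-granin member with the most UMIs as its leading hormone, if that member had at least 3. In tissue, Pyy led in 22 of 57 and 23 of 105 cells, Tph1 in 14 and 42, Sst in 5 and 8 and Tac1 in 3 and 6. In assembloids, Tac1 led in 8 of 34 (23.5%, exact interval 10.7 to 41.2) and 16 of 59 cells (27.1%, 16.4 to 40.3), Pyy in 5 and 9, Cck in 1 and 10 and Tph1 in 2 and 7. Tac1 led in 5.26% (1.10 to 14.6) and 5.71% (2.13 to 12.02) of tissue cells, below both assembloid shares. No gated tissue cell was led by Cck, which allows up to 6.27% and 3.45%, against 2.94% and 16.9% in assembloids. Insl5 led in no gated tissue cell, as Pyy outnumbered it there. Gated cells with no leading hormone were 10 of 57 and 23 of 105 in tissue, 18 of 34 and 13 of 59 in assembloids and 10 of 12 and 12 of 19 in organoids. The limit of 3 UMIs was applied at full depth, which differed between libraries. The median UMIs of a gated cell were 8845 and 5699 in tissue, 3886 and 11503 in assembloids and 18813 and 7324 in organoids. The numbers led by each hormone are counts of cells within single libraries and were not tested between groups.

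A cell was called rich in a gene if it had at least 5 UMIs of it, making up at least 10 per 10,000 of its UMIs, limits set after the data were seen. In tissue the L-cell hormones shared their rich cells, and few of those were rich in Chgb. All 15 Gcg-rich cells of tissue 1 and 11 of 12 in tissue 2 were also Pyy-rich, as were 17 of 17 and 17 of 18 Insl5-rich cells. By contrast, 4 of 33 and 2 of 27 Pyy-rich tissue cells were Chgb-rich. In assembloids 38 of 80 and 11 of 14 Pyy-rich cells were Chgb-rich. Tph1-rich cells were Tac1-rich in 2 of 12 and 2 of 39 in tissue and in 3 of 5 and 13 of 19 in assembloids.

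**Figure D4:**
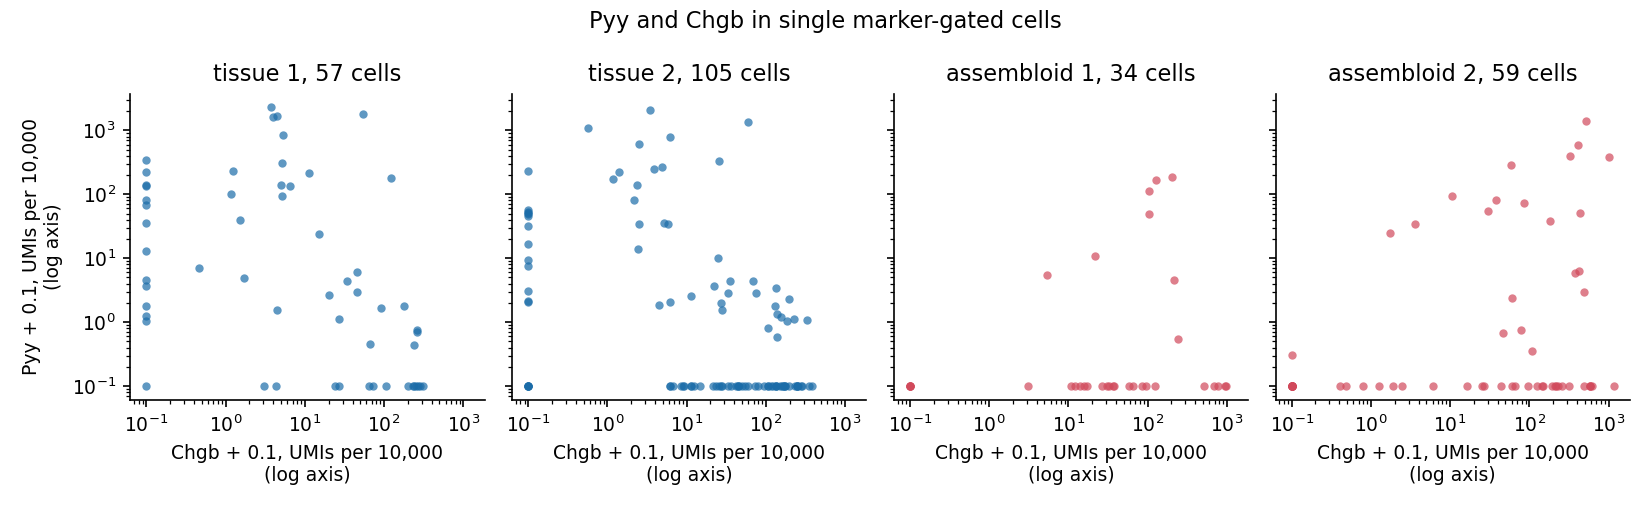
Pyy against Chgb in each marker-gated cell, in UMIs per 10,000 of the cell's UMIs on log axes, by library. In tissue the cells high in Pyy were mostly low in Chgb (Pearson's r -0.46 and -0.52), while in assembloids cells high in both were present (0.21 and 0.29).

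The same patterns stood in the correlations over gated cells, computed on log UMIs per 10,000 within a library and given as descriptions, since the cells share a library and its depth. Pearson's r between Chgb and Pyy was -0.46 and -0.52 in tissue (57 and 105 cells) and 0.21 and 0.29 in assembloids (34 and 59 cells). Between Tph1 and Tac1 it was 0.32 and 0.20 in tissue and 0.78 and 0.78 in assembloids. Gcg and Insl5 had 0.92 and 0.86 in tissue and 0.39 in assembloid 2, with no value in assembloid 1, where no gated cell had Insl5. The value of assembloid 2 rests on few UMIs. There 1 gated cell held 217 of 298 Gcg UMIs, and another held 42 of 89 Insl5 UMIs. It is not read as a difference from tissue. Chga and Chgb went together in both groups, at 0.56 and 0.65 in tissue and 0.78 and 0.83 in assembloids.

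Single cells carried such mixes. The richest gated Pyy cell of tissue 1 had 4352 Pyy, 2001 Gcg, 802 Insl5 and 131 Chgb UMIs, and that of tissue 2 had 3787 Pyy, 345 Gcg, 1182 Insl5 and 6 Chgb UMIs. The one of assembloid 2 had 2999 Pyy and 1099 Chgb UMIs, with no Gcg and no Insl5. The Sst cell of assembloid 2 had 1677 Sst, 353 Pyy, 231 Cck and 72 Chgb UMIs, and 19 of the 25 markers. The richest Chgb cell of assembloid 1 had 1191 Chgb, 137 Tac1, 66 Chga and 37 Tph1 UMIs. Tissue 1's richest Chgb cell had 707 Chgb, 214 Tph1, 135 Chga and 1 Tac1 UMIs.

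Assembloid 1 stood apart in the markers of its rich cells. It had 339 Chgb-rich and 80 Pyy-rich cells, against 47 and 14 in assembloid 2, 28 and 33 in tissue 1, 66 and 27 in tissue 2, 2 and 1 in organoid 1, and 10 and 4 in organoid 2. As shares of all cells used, Chgb-rich cells made up 1.21% of assembloid 1, between the 0.598% and 1.53% of tissue, and Pyy-rich cells 0.286%, below the 0.704% and 0.627% of tissue. At 3 UMIs and 5 per 10,000, assembloid 1 had 512 Chgb-rich and 104 Pyy-rich cells and tissue 1 had 74 Pyy-rich cells and tissue 2 60, and at 10 UMIs and 20 per 10,000 assembloid 1 had 156 and 40. Of its Chgb-rich cells 271 had 0 to 2 of the 25 markers at full depth, with a median of 2301 UMIs per cell and 10 Chgb UMIs, and 18 had 6 or more. In assembloid 2, 46 of 47 had 6 or more, and in tissue 28 of 28 and 59 of 66. Of the Pyy-rich cells of assembloid 1, 63 had 0 to 2 markers, against 9 of 33 and 3 of 27 in tissue and 0 of 14 in assembloid 2. The Pyy-rich cells of assembloid 1 held goblet markers at 98.9 per 10,000 UMIs and its Chgb-rich cells at 45.4, against 23.96 over all of its cells. For assembloid 1, 35.5% of the Chgb and 18.3% of the Pyy UMIs lay in gated cells, against 87.6% and 86.0% in assembloid 2. Depth, goblet markers and library move together here and cannot be told apart.

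**Figure D5:**
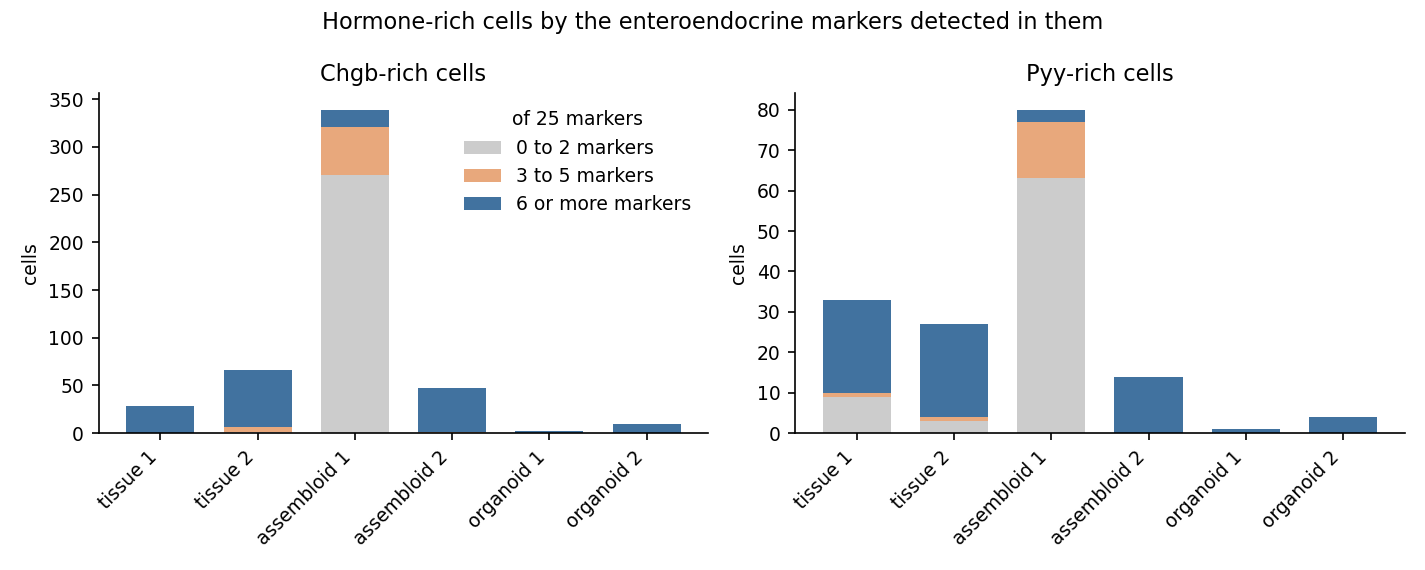
Number of Chgb-rich (left) and Pyy-rich (right) cells in each epithelial library, divided by how many of the 25 enteroendocrine markers the cell carried. In assembloid 1, 271 of 339 Chgb-rich and 63 of 80 Pyy-rich cells carried 0 to 2 markers, while 46 of 47 Chgb-rich cells of assembloid 2 carried 6 or more.

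Outside the gate, low counts were widespread for the most abundant hormone. Among tissue cells with at least 2000 UMIs that did not pass the gate, thinned to that number, 9.41% and 11.95% still had a Pyy UMI. At full depth, and with the shallower cells included, 36.2% and 33.1% of the cells outside the gate did. What these UMIs came from was not tested, and these shares are not read as expression. They bear little on the sums, since 86.8% and 86.9% of the tissue Pyy UMIs lay in gated cells. For the other members except Tac1 and Nts that share was between 81.1% and 97.5% in tissue, and for Tac1 it was 34.1% and 44.5%.

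In the stroma the fibroblast markers of Cck-rich cells were near the level of all cells in stroma 1 and below it in stroma 2. These markers therefore do not set the Cck-rich cells apart. There were 606 and 333 Cck-rich cells, 6.72% and 3.68% of stromal cells, with up to 1058 and 1556 Cck UMIs in 1 cell. They held fibroblast markers at 121.5 and 123 per 10,000 and epithelial markers at 0.405 and 0.166, where all stromal cells held fibroblast markers at 120.6 and 169. The 55 Cck-rich cells of assembloid 1 held epithelial markers at 111, goblet markers at 90.6 and fibroblast markers at 23.3, and the 12 of assembloid 2 held 85.8, 17.6 and 6.38. The 15 and 23 Nts-rich stromal cells held endothelial markers at 55.9 and 55.8 per 10,000, where all stromal cells held 2.59 and 2.55. Tac1-rich stromal cells, 12 and 3 in number, held fibroblast markers at 86.9 and 98.2, below the level of all stromal cells. Of the 12 in stroma 1, 2 were also rich in Chga, Chgb and Tph1, and 4 were rich in Cck. Stroma 1 also contained 1 cell with 750 Pyy, 537 Chgb and 136 Insl5 UMIs and 21 of the 25 markers, which gave 93.6% of the Pyy and 98.6% of the Insl5 UMIs of that library. Stroma 2 had no Pyy UMI.

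The genes whose levels followed each member most closely over the gated tissue cells were ranked by the lower of the 2 tissue values of Pearson's r. Gcg was closest to Insl5 (0.92 and 0.86) and Pyy (0.83 and 0.75), Pyy to Insl5, Gcg and Etv1 (0.69 and 0.74), and Insl5 to Gcg, Pyy and Scg2 (0.84 and 0.72). Sst was closest to Calcrl (0.77 and 0.64), Hhex (0.90 and 0.62) and Rai14 (0.87 and 0.60). Chgb was closest to Lmx1a (0.70 and 0.66), Slc38a11 (0.70 and 0.65) and Rab27b (0.61 and 0.62), and Tph1 to Piezo2 (0.66 and 0.71), Snap25 (0.69 and 0.59) and Ctnnd2 (0.59 and 0.60). Chga was closest to Chgb, Pcsk1n (0.62 and 0.50) and Fgl2 (0.48 and 0.46), Tac1 to Tmem158 (0.58 and 0.68), Chgb and Gstt1 (0.56 and 0.48), and Cck to Gcg (0.51 and 0.68), Fabp5 (0.49 and 0.46) and Pyy. Nts had no UMI in those cells and gave no value. Scg2, Snap25 and Pcsk1n are among the markers of the gate and so bear on which cells entered it.

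The counts of 4 gene lists that follow stand beside the same shares of all genes as the members: 26.7% higher and 23.1% lower in assembloids against tissue, 24.3% and 22.9% in organoids against tissue, 24.3% and 28.6% in organoids against assembloids, and 11.5% and 12.1% in gated cells. Of the transcription factors that specify enteroendocrine cells, 20 genes were tested. In assembloids against tissue 15 were called lower, where 23.1% of all genes were, and 0 higher (median log2 -1.98). Among these, the motor neuron and pancreas factor Mnx1 had 1.51 and 1.68 CPM in tissue and 0.0239 and 0.0371 in assembloids (-5.30). In organoids against tissue 15 were lower and 1 higher (median -2.09), with St18 (-5.19) and Lmx1a (-4.97) changed most. In organoids against assembloids 4 were higher and 2 lower (median 0.33), both shares below those of all genes, led by Mnx1 (3.18) and Etv1 (-2.82). In gated cells, assembloid against tissue, 10 of 18 were lower and 1 higher (median -1.12), but 6 of the list are among the markers of the gate and so bear on which cells entered it. Of the 12 others tested, 8 were lower and 1 higher (median -1.40). The one that was higher was Neurog3, the factor that starts the lineage, with 87.9 and 89.3 CPM in assembloids and 21.99 and 7.82 in tissue (2.85, adjusted p = 0.000887).

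Of 26 genes for granule processing and release, 15 were lower and 2 higher in assembloids than in tissue (median -1.08; 23.1% and 26.7% of all genes), led by Stx1a (4.62), a membrane protein of vesicle fusion, and Ptprn2 (-4.22), a granule membrane protein. In organoids against tissue 23 were lower and 1 higher (median -2.79). Resp18 had 5.89 and 7.71 CPM in tissue and 0 and 0.0108 in organoids, and Snap25, another fusion protein, changed by -5.13. In organoids against assembloids 13 were lower and 1 higher (median -1.10), with Resp18 at 0.245 and 0.501 CPM in assembloids and Ptprn at -5.81. In gated cells 10 of 25 were lower and 2 higher in assembloids (median -0.84), and 6 lower and 2 higher of the 15 that the gate does not use (median -0.80), led by Vgf (3.05) and Cadps (-2.86), the latter a protein that primes granules for release.

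Of 14 tested genes for other gut hormones and peptides, 7 were higher and 5 lower in assembloids than in tissue (median 2.56; 26.7% and 23.1% of all genes). The fibroblast, immune and neuron markers that were higher in the same assembloid libraries are given above, and their part in these counts was not tested. Penk, the enkephalin precursor, had 1.04 and 0.353 CPM in assembloids and no UMI in tissue or organoids, and Adm, adrenomedullin, had 151 and 141 CPM in assembloids against 1.70 and 2.57 in tissue (6.50). In organoids against tissue 7 were lower and 0 higher (median -1.27), with Guca2a, guanylin, at -6.71 and Ppy at 0.255 and 0.271 CPM in tissue and no UMI in organoids. In organoids against assembloids 9 were lower and 0 higher (median -2.93), with Penk and Nmu (-6.06) changed most. In gated cells, Adm was higher in assembloids (7.01) and Sct, secretin, lower (-2.06), and 2 of 4 tested genes went each way (median -0.14).

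Of 19 tested sensors, receptors and channels by which enteroendocrine cells read the lumen and the blood, 8 were lower and 3 higher in assembloids than in tissue (median -1.46; 23.1% and 26.7% of all genes, the latter above the share of the sensors). Trpa1, an irritant channel, had 0.466 and 0.13 CPM in assembloids and no UMI in tissue, and Gper1 had 0.745 and 1.00 CPM in tissue and 0.00597 and 0 in assembloids. In organoids against tissue 13 were lower and 0 higher (median -4.18). Both leading genes were somatostatin receptors, Sstr1 with 3.09 and 3.33 CPM in tissue and 0 and 0.0108 in organoids, and Sstr5 with 0.277 and 0.298 CPM in tissue and no UMI in organoids. In organoids against assembloids 9 were lower and 1 higher (median -1.69), led by Trpc4 (-5.84) and Abcc8 (-4.96). In gated cells 6 of 10 were lower and 0 higher in assembloids (median -2.78). Trpc4 had 72.3 and 43.0 CPM and Gper1 18.8 and 40.4 CPM in gated tissue cells, and neither had a UMI in gated assembloid cells.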

How the data were processed

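The authors deposited whole-number UMI counts per gene and cell, as one filtered matrix for each of 8 libraries. The submitters' notes name Cell Ranger 6 and build mm10; the matrix headers give Cell Ranger 6.0.1 for stroma and 7.1.0 for epithelium, and whether introns were counted is not given in the sources used here. In every library a cell needed 500 genes and no more than 10% mitochondrial UMIs, the limits the study states for stroma. The depth was 36944213 to 187583982 UMIs a library, and intervals cover counting error only. Cells are not replicates: UMIs were summed per library, and the 2 libraries of a group, biological replicates per the study's methods, were compared in 1 edgeR fit over the 6 epithelial libraries (R 4.3.3, edgeR 4.0.16, filterByExpr, TMM). The stroma was only described. DESeq2 1.42.0 was an alternative, beside other filters, gates and libraries left out. The edgeR fit was tried on simulated data with a spread (dispersion) of 0.05 and 200 genes of mean count at least 10 changed 4-fold. It recovered 94.5%, 92.5% and 95.0% of the tested ones in the 3 comparisons, in the order reported, and 80.3% in gated cells. False calls numbered 5, 11, 12 and 3. The spread was assumed and not taken from these libraries, so the rates hold for that setting alone.

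The members and lists were chosen with earlier results of these data known. Named beside the 10 members were, from each of 4 lists and in each contrast, the 2 called genes with the largest absolute log2 fold change, and the 3 genes most like each member; some results that this rule names are not reported here. The likeness needed r of at least 0.3 in both tissue libraries and a UMI in at least 5% of gated cells. Limits of the gate and of rich cells, and leaving out the richest cells, were chosen after seeing the data. Positions were matched to GRCm38, and sequences came from RefSeq. Python 3.11.15 was used for cell steps.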

Additional observations from a re-analysis of the deposited data

Results flagged for a closer look

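Both signals below were in the stromal libraries, which entered no comparison, and were above the level of the tissue epithelium. Cck stood at 412 and 322 (321.9) CPM in the stroma, where the higher tissue library had 6.69. Nts stood at 3.23 and 10.0 CPM in the stroma, where neither tissue library had a UMI. A limit of 3 UMIs, which treats UMIs as independent, is 0.0357 CPM over the tissue group. No test was run between stroma and epithelium.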

How the results depend on the processing

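Of 531 alternative values of the members' fold changes, 481 kept their direction and their side of the threshold, 33 lost the call, 7 gained one and 10 changed sign; causes were not tested beyond the fewer libraries or cells an alternative uses. Chgb, assembloid against tissue, turned to -1.67 at 5% mitochondrial UMIs, -0.0088 at 1000 genes per cell and -0.095 with non-epithelial cells kept, and ranged from -0.53 to 0.51 with 1 library left out. At 5% mitochondrial UMIs Cck (0.09) and Tac1 (0.31) were not called either, and Sst was called lower (-4.67); at 20% Pyy was not called (adjusted p = 0.0507). Without the richest cells the median over the 9 members still tested was -2.83 (assembloid against tissue). Tph1 lost its call in 7 of 15 alternatives. Insl5, organoid against assembloid, ranged from -3.50 to 1.03 with 1 library left out. Sst in gated cells turned to -0.055 with DESeq2, -1.47 with the replicate block and between -12.21 and 1.00 with 1 library left out. With 1 library left out, the genes called ranged from 5301 to 10211 (assembloid against tissue; 5301 and 5623 without a tissue library) and from 5250 to 9716 (organoid against tissue; 5250 and 5400), and the members called from 5 (without tissue 1) to 9 and, organoid against assembloid, from 5 (without organoid 1) to 10. In gated cells 1027 genes were called by DESeq2, 1153 to 2004 with 1 library left out (1319 and 1153 without a tissue library), and 4 members at a gate of 2 markers. The mean gated share moved from 0.57% to 1.26% in assembloids and from 0.332% to 1.13% in organoids without thinning and with the cells under 2000 UMIs included, to 0.492% in organoids and 0.939% in assembloids at a gate of 2 markers and from 3.07% to 1.35% in tissue at 20% mitochondrial UMIs. Samples with the same replicate number did not deviate together over genes (r = -0.025, 0.039 and -0.022). With only 1 difference between replicates in each group, this cannot show whether the numbers mark a pairing. With the replicate block 9412, 8907 and 10028 genes were called, and 2345 in gated cells. The members' median, assembloid against tissue, moved with that block from -1.29 to -2.16 and, in gated cells, from -0.23 to -1.47.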
